A study of Mus musculus with 2 samples.

Results

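The 9 neurotrophic factors and receptors described here are the secreted factors Cntf, Bdnf, Gdnf and Ntf3 and the receptors Ngfr, Ntrk2, Gfra1, Gfra2 and Gfra3. They were taken by gene symbol, and all 9 were among the 33696 genes counted. The study compared 2 single-cell RNA libraries from mouse tibialis anterior (TA) muscle, 1 labelled KO and 1 labelled WT, each pooled from 10 TA muscles of 5 male mice and both given batch 1. The labels name neither the deleted gene nor the cells it was deleted in, give no age, and call the condition of both groups ND without spelling it out, so the deletion could not be checked in the counts. Although the labels call the cells FAPs (fibro-adipogenic progenitors, the resident connective-tissue progenitors of muscle), the suspension was sorted for viability alone, and it held glia, vessel, stromal, immune and muscle cells. FAP-like cells of the Col15a1 and Cxcl14 type numbered 747 in KO and 1072 in WT, and those of the Dpp4 and Pi16 type 89 in KO and 253 in WT.

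Neurotrophic factors are secreted proteins that keep neurons alive and guide their axons. Bdnf and Ntf3 are neurotrophins and act through Trk receptor kinases, Bdnf through the product of Ntrk2 and Ntf3 mainly through that of Ntrk3, while Ngfr encodes p75NTR, the receptor that binds all neurotrophins. Gdnf and its relatives bind a membrane-anchored co-receptor of the GFRα family and signal through the kinase Ret or through Ncam1: Gfra1 is the co-receptor of Gdnf, Gfra2 that of neurturin and Gfra3 that of artemin. Cntf is a cytokine of the interleukin-6 family made by Schwann cells, and it signals through Cntfr, Lifr and Il6st. In muscle, Gdnf and Ntf3 are known as factors from the target tissue for motor and proprioceptive neurons.

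The KO library held 19531 barcodes with 101570863 UMIs (unique molecular identifiers, the count of captured RNA molecules) and the WT library 11360 barcodes with 38014703. After filtering, 17104 KO and 9805 WT cells were left, with medians of 4147 and 2920 UMIs, and 61 barcode sequences occurred in both libraries. Marker lists placed 80.7% of the kept KO cells and 90.6% of the kept WT cells in a class, written here with the ending -like. A cluster of 2870 KO barcodes with haemoglobin genes in the lead, a median of 1348.5 UMIs and no WT cell stood apart, and leaving it out changed none of the 10 calls below. With 1 library per genotype, genotype and library cannot be told apart and no test was possible: intervals are at 95% and cover counting error alone, and a pair of gene and class was called when the libraries were at least 2-fold apart.

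Levels are given as CPM, the UMIs of a gene in a class scaled to a class total of 1000000 UMIs. They count the 3′ ends of transcripts and are compared within a gene, not between genes. Of 180 pairs of member and class, 56 had at least 20 UMIs over both libraries and were compared. Of these, 1 was called higher in KO, 9 were called lower in KO and 46 lay within 2-fold. Over all genes, 8.07% of 189246 pairs of gene and class were called, 4.21% higher in KO and 3.86% lower. For 7 of the 9 members the same class had the highest level in both libraries. The leading class was myelin-high Schwann-like cells for Cntf and Gfra1, myelin-low Schwann-like cells for Gfra3, mural-like cells with both pericyte and smooth muscle markers for Bdnf, satellite-like cells for Gdnf, capillary endothelial-like cells for Ntf3 and smooth muscle-like cells for Ntrk2. Ngfr and Gfra2 were highest in perineurial-like cells in KO, against tenocyte-like and pericyte-like cells in WT. For Gfra2 in either library and for Ngfr in WT, the interval of the leading class overlapped that of the next class. In lymphocyte-like and neutrophil-like cells, pooled as a comparison, the highest member was Gfra1, at 5.32 CPM in 396 KO cells and 5.51 CPM in 266 WT cells.

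**Figure D1:**
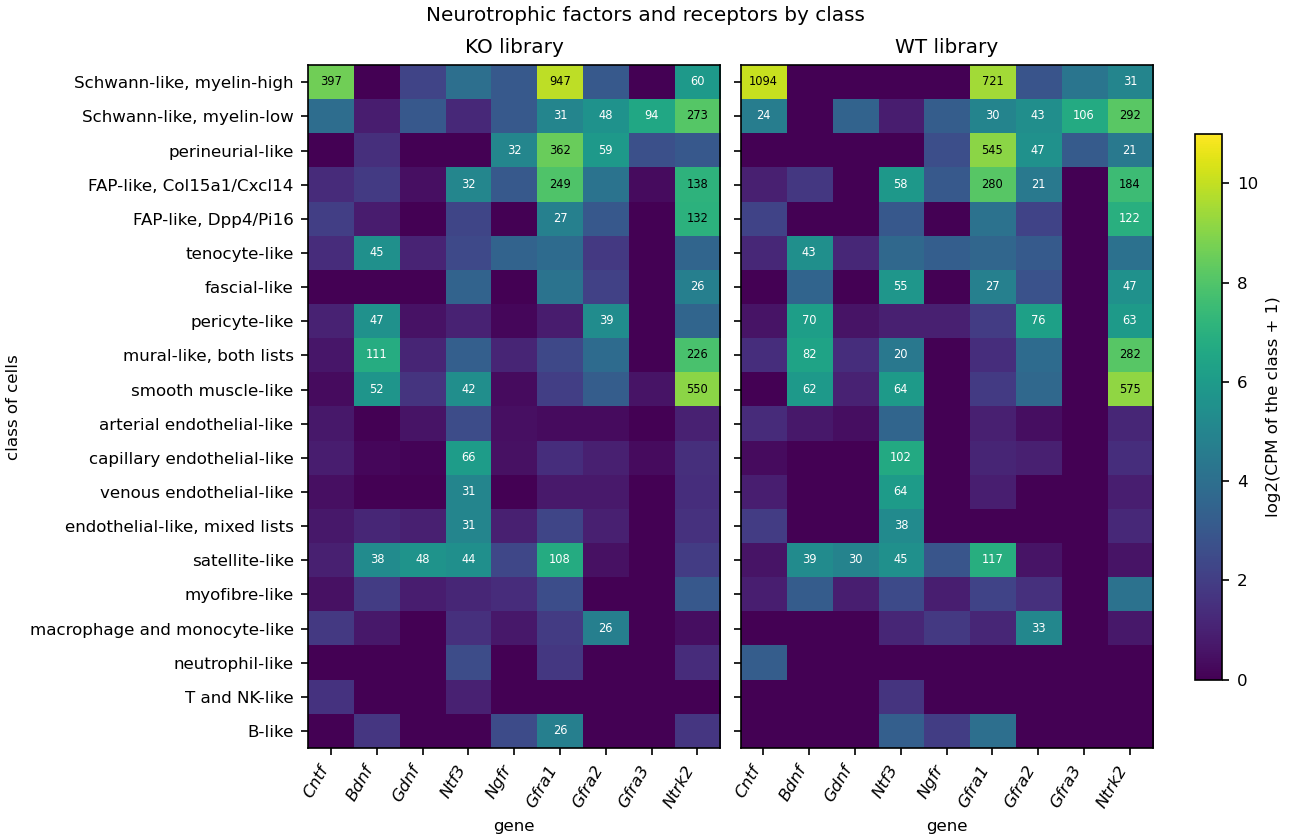
Level of the 9 genes in 20 classes of cells, KO library on the left and WT library on the right; colour is log2(CPM of the class + 1), and values of 20 CPM or more are printed in CPM. Cntf stands out in the myelin-high Schwann-like row at 397 CPM in KO and 1094 CPM in WT, while Gfra1 and Ntrk2 extend over glial, stromal and mural rows in both libraries.

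Among the secreted factors, Cntf was largely a signal of myelinating glia. In myelin-high Schwann-like cells, the cells rich in myelin genes such as Mbp and Prx, Cntf stood at 397 CPM in 60 KO cells and 1094 CPM in 59 WT cells. The next class, myelin-low Schwann-like cells, had 14.1 CPM in KO and 24.0 CPM in WT, and neither library held a Cntf UMI in perineurial-like cells. The myelin-high class was a small share of all cells, yet it held 39.8% of the Cntf UMIs of the KO library and 72.7% of those of the WT library.

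Cntf was lower in KO in the myelin-high class, with a log2 ratio of -1.46 (interval -1.82 to -1.11). Of all genes compared in this class, 12.4% were called in either direction. The share of cells with a Cntf UMI was alike, 40.0% (interval 27.6 to 53.5) in KO and 39.0% (26.5 to 52.6) in WT, and the UMIs per such cell averaged 4.42 in KO and 7.65 in WT. The KO cells of the class were deeper, with a median of 4219.5 UMIs against 2429 in WT, and after thinning to 2000 UMIs the shares were 37.2% of 43 KO cells and 43.6% of 39 WT cells. In lymphocyte-like and neutrophil-like cells, with medians of 6216.5 UMIs in KO and 3000.5 in WT, the share was 0.505% in KO and 0.376% in WT. In the myelin-gene cluster, which holds nearly all of these cells and was built without the 9 genes, Cntf had 331 CPM in 81 KO cells and 1075 CPM in 57 WT cells, a log2 ratio of -1.70 where 16.5% of all genes were called. Without the cell with the most Cntf UMIs in each library the ratio was also -1.70. The strict cell filter and thinning left fewer than 50 myelin-high cells in a library, so Cntf was not compared there.

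Marker lists in this class also differed between libraries. The 10 myelin genes summed to 28630 CPM in KO and 40795 CPM in WT, with none of the 10 past 2-fold. The low-myelin list summed to 1093 CPM in KO and 565 CPM in WT, with 3 of its 6 compared genes called higher in KO. The endothelial list summed to 460 CPM in KO, with none of its 9 genes at 0, and 55.9 CPM in WT, with 6 of 9 at 0. The part of these shifts in the Cntf difference was not tested.

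Cntf lies wholly inside Zfp91, a zinc finger gene on the same strand, so reads of the 2 genes can be split differently by counting. Zfp91 had 243 CPM in KO and 174 CPM in WT in the myelin-high class, and 192 CPM in KO and 192 CPM in WT in the myelin-low class. It lay above 25 CPM in all 20 classes, without the restriction to myelin-high cells seen for Cntf. The 250 bases before the RefSeq start of Cntf (GRCm38.p6, chr19:12765633-12765882, minus strand) are shown because the myelin-high class led for Cntf in both libraries and Cntf was called there. In the GENCODE M21 annotation they lie within a Zfp91 transcript and in no exon, that is, in an intron. Capitals mark a match to TGACTCA, the AP-1 letters bound by Jun and Fos dimers, 245 bases before the start, and a match to ACAATG, letters recognised by SOX factors, 54 bases before it.
Cntf: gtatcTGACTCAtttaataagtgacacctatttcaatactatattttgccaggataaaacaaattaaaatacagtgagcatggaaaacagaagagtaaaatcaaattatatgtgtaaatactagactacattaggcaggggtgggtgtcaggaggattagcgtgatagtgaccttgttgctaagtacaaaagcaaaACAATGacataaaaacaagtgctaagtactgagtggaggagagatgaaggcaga
Both strands were searched, for TGACTCA or TGAGTCA and for ACAATG or CATTGT. Of 32851 mouse windows of the same length, 4.46% held the AP-1 letters and 10.7% the SOX letters. The window is 35.6% G and C, and 5.41% of all windows have a lower share. Of the other members with a RefSeq window, Ntrk2 alone held the SOX letters, 242 bases before its start, and none held the AP-1 letters. Gfra2 and Gfra3 were not among the windows.

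Bdnf, the ligand of Ntrk2, was found in mural, tendon and muscle stem cells and was near 0 in glia. Mural-like cells with both marker lists had 111 CPM in KO and 82.3 CPM in WT. Pericyte-like cells had 46.7 CPM in KO and 70.0 CPM in WT, and smooth muscle-like cells had 51.8 CPM in KO and 61.6 CPM in WT. In KO the mural-like class stood above the rest, whereas in WT its interval overlapped that of pericyte-like cells. Tenocyte-like cells had 44.5 CPM in KO and 43.5 CPM in WT. Satellite-like cells, the muscle stem cells, had 38.0 CPM in KO and 38.5 CPM in WT.

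All 6 compared Bdnf pairs lay within 2-fold, with log2 ratios between -0.57 in pericyte-like and 0.43 in the mixed mural-like class. Few cells carried the signal: 20.1% of KO and 13.6% of WT cells in the mixed mural-like class had a Bdnf UMI, and 1 KO cell held 20 of them. These shares are as sequenced, at medians of 5709 UMIs per cell in KO and 2708 in WT. Among clusters, the one led by Id4 and Actg2, which also has Il6 among its leading genes, was highest for Bdnf, with 121 CPM in 301 KO cells and 171 CPM in 298 WT cells. The pericyte-like cluster led by Abcc9 and Kcnj8 had 46.7 CPM in KO and 35.2 CPM in WT, the reverse of the order in gated pericyte-like cells. Neither myelin-high library held a Bdnf UMI, which allows up to 11.2 CPM in KO and 18.6 CPM in WT (3 counts each).

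Gdnf was mainly a satellite-like signal. Satellite-like cells had 48.5 CPM in KO and 29.6 CPM in WT, a log2 ratio of 0.69 (interval 0.30 to 1.14), within 2-fold. They held 59.8% of the Gdnf UMIs of the KO library and 50.4% of those of WT. A Gdnf UMI was seen in 9.66% of 673 KO and 5.25% of 552 WT satellite-like cells, and thinned to 2000 UMIs in 6.37% of KO and 3.51% of WT cells. Summed over the thinned cells, which leave out those under 2000 UMIs, the log2 ratio was 1.13, past 2-fold. The only other class compared was myelin-low Schwann-like, at 7.19 CPM in KO and 10.3 CPM in WT. Within the Schwann-like clusters, the one led by Cadm2 and Scn7a had 25.5 CPM in KO, from 6 cells, and 17.9 CPM in WT, from 3 cells, and the one led by Bche and Tafa1 had 1.30 CPM in KO and 5.96 CPM in WT.

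Ntf3, a neurotrophin known for spindle afferents, was the member with the broadest difference between libraries. Its ratio was below 0 in all 10 classes compared, with the interval below 0 in 7, and 5 of the 10 were called. In satellite-like cells the ratio of -0.04 turned to 0.06 with TMM scaling, 0.10 after thinning and 0.02 without the top cell of each library. The background of calls lower in KO, over all genes and classes, was 3.86%. The classes share the same 2 libraries, so the 10 differences are not independent repeats. Capillary endothelial-like cells had the highest level, 66.3 CPM in 5072 KO cells and 102 CPM in 1835 WT cells, with a log2 ratio of -0.62 (interval -0.78 to -0.47) and therefore not called.

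The called classes were stromal, mural and endothelial. Fascial-like cells had 10.2 CPM in KO and 54.5 CPM in WT, a log2 ratio of -2.31 (interval -3.61 to -1.39), from 9 UMIs in KO and 57 in WT. This class had a background of 12.6% called in either direction. Tenocyte-like cells had 4.45 CPM in KO and 12.0 CPM in WT, a log2 ratio of -1.25. Venous endothelial-like cells had 30.7 CPM in KO and 63.9 CPM in WT, a log2 ratio of -1.03. Arterial endothelial-like cells had 4.84 CPM in KO and 11.1 CPM in WT, a log2 ratio of -1.05, and the mixed mural-like class had 9.14 CPM in KO and 20.2 CPM in WT, a log2 ratio of -1.06 (interval -2.34 to 0.09) from 15 UMIs in KO and 12 in WT. The backgrounds were 8% in tenocyte-like, 7.57% in venous, 2.88% in arterial and 8.08% in mixed mural-like cells. The venous, arterial and mixed mural-like calls lay close to the 2-fold limit and were lost with TMM scaling. The tenocyte-like ratio was -0.77 with doublets kept and -0.84 with a pseudocount of 5 CPM, and the pair was not compared after thinning.

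**Figure D2:**
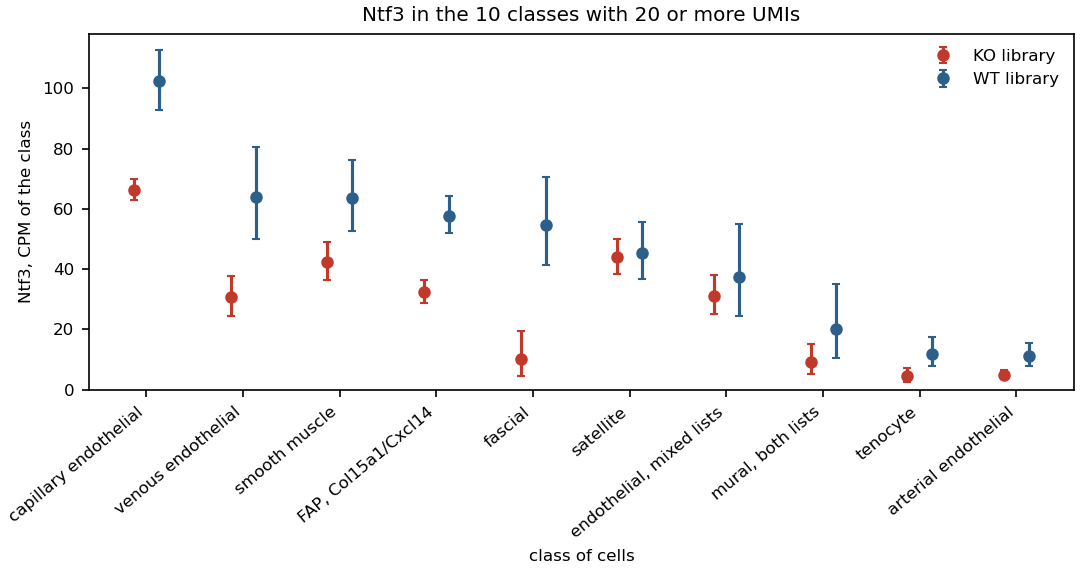
Ntf3 in CPM (vertical axis, from 0) in the 10 classes with at least 20 UMIs over both libraries, ordered by the WT level; points are class levels and bars exact Poisson 95% intervals for counting error. KO points lie below WT points in each class, and the satellite-like pair nearly coincides at 44.0 CPM in KO and 45.4 CPM in WT.

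The remaining Ntf3 classes were smaller differences or none. FAP-like cells of the Col15a1 and Cxcl14 type had 32.4 CPM in KO and 57.8 CPM in WT, a log2 ratio of -0.82 (interval -1.07 to -0.60). Smooth muscle-like cells had 42.3 CPM in KO and 63.7 CPM in WT. Satellite-like cells had 44.0 CPM in KO and 45.4 CPM in WT, a log2 ratio of -0.04 (interval -0.40 to 0.32).

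In clusters built without the 9 genes, Ntf3 was compared in 12 and was lower in KO in all 12, with 3 called. The interval covered 0 in the satellite-like cluster, the capillary-like one led by Gpihbp1 and the FAP-like one led by Pi16. It also covered 0 in the arterial-like cluster led by Clu, at -0.42 (interval -1.15 to 0.21), so the arterial call was not repeated there. The background over all clusters was 3.99% called lower in KO, and in the called clusters 8.21%, 12% and 16.5% of all genes were called in either direction (led by Fmod, Ifi205 and Slc1a1). The called clusters were the tenocyte-like one led by Fmod and Thbs4, with 5.97 CPM in KO and 25.4 CPM in WT, the FAP-like one led by Ifi205 and Plau, with 19.6 CPM in KO and 47.8 CPM in WT, and a capillary-like one led by Slc1a1 and Lnx1, with 80.7 CPM in KO and 193 CPM in WT. The Fmod and Thbs4 cluster held 872 tenocyte-gated and 295 fascial-gated cells over both libraries, so its call is not separate from the fascial-like one. It had 28 Ntf3 UMIs in KO and 87 in WT, against 9 in KO and 57 in WT in fascial-like cells. The highest Ntf3 level was in a small cluster led by Coch and Sbspon, with 273 CPM in 90 KO cells and 493 CPM in 66 WT cells. No marker list was raised enough in this cluster to name it, but 61 of its KO cells and 38 of its WT cells passed the Col15a1-type FAP gate. Without them FAP-like cells had 14.1 CPM of Ntf3 in KO and 41.5 CPM in WT, a ratio of -1.49 in place of -0.82 and past 2-fold. Of the other members high there, Gfra1 had a ratio of -0.27 and Ntrk2 one of -0.54 in FAP-like cells without them. The KO cells were deeper in each of the 20 classes: capillary endothelial-like cells had a median of 4135.5 UMIs in KO and 2032 in WT. The share of these cells with an Ntf3 UMI was 19.7% in KO and 17.5% in WT as sequenced, and 11.3% in KO and 17.2% in WT after thinning to 2000 UMIs. Thinning left out cells under 2000 UMIs, so the thinned shares cover part of the class in each library.

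Among the receptors, Ngfr (p75NTR) was highest in KO perineurial-like cells, the sheath cells around nerve fascicles, at 32.1 CPM against 5.22 CPM in WT, a log2 ratio of 2.41 (interval 0.56 to 5.77). This rests on 18 UMIs in 13 of 97 KO cells and 2 UMIs in 2 of 108 WT cells, and 13.8% of all genes in the class were called. The perineurial-like cluster gave 34.1 CPM in KO and 6.65 CPM in WT, where 14.7% of all genes were called. With a looser cell filter, a stricter gate, thinning, or without the cell with the most UMIs in each library, the pair fell under 20 UMIs and was not compared. The 10 perineurial marker genes summed to 3921 CPM in KO and 4403 CPM in WT, with 2 called higher and 2 called lower, and the fascial list to 114 CPM in KO and 10.4 CPM in WT. The part of these in the Ngfr difference was not tested.

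The other 4 Ngfr pairs lay within 2-fold. Tenocyte-like cells had 10.3 CPM in KO and 8.87 CPM in WT, myelin-low Schwann-like cells 7.47 CPM in KO and 8.57 CPM in WT. Higher levels lay in 2 smaller clusters. The Schwann-like cluster led by Cadm2 and Scn7a had 39.3 CPM in 206 KO cells and 44.6 CPM in 150 WT cells. The FAP-like cluster led by Apod and Lum had 28.7 CPM in 174 KO cells and 42.3 CPM in 185 WT cells.

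Ntrk2, which encodes the Bdnf receptor TrkB, was highest in smooth muscle-like cells of vessels, at 550 CPM in KO and 575 CPM in WT, a log2 ratio of -0.07 (interval -0.17 to 0.04). A Ntrk2 UMI was present in 54.8% of KO and 51.5% of WT cells of this class, as sequenced, at medians of 8465.5 UMIs in KO and 3985 in WT. Myelin-low Schwann-like cells followed, with 273 CPM in KO and 292 CPM in WT. Mixed mural-like cells had 226 CPM in KO and 282 CPM in WT, and FAP-like cells had 138 CPM in KO and 184 CPM in WT in the Col15a1 type, and 132 CPM in KO and 122 CPM in WT in the Dpp4 and Pi16 type. The Coch and Sbspon cluster had 473 CPM in KO and 698 CPM in WT, with 39.1% of the WT UMIs in 1 cell. Endothelial-like classes stayed at or below 1.92 CPM in KO and 1.68 CPM in WT.

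Of 11 Ntrk2 pairs, 2 were called lower in KO. Pericyte-like cells had 11.1 CPM in KO and 63.2 CPM in WT, a log2 ratio of -2.41 (interval -2.95 to -2.09), in a class where 6.02% of all genes were called. The signal came from 25 of 1231 KO and 32 of 754 WT cells, and the cell with the most UMIs held 33.8% of them in KO and 34.6% in WT. Pericyte-gated cells that fell into smooth muscle-like clusters, 56 in KO and 109 in WT, carried 74.6% of the Ntrk2 UMIs of the class in KO and 90.8% in WT. Without the top cells the ratio was -2.35, and in the pericyte-like cluster the levels were 2.71 CPM in KO and 7.58 CPM in WT, a ratio of -1.21, where 5.85% of all genes were called. Myofibre-like cells had 7.10 CPM in KO and 16.6 CPM in WT, a ratio of -1.12 against a background of 8.45%. There 1 WT cell held 66.7% of the UMIs, and without the top cell in each library the ratio turned to 0.15.

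Gfra1, the Gdnf co-receptor, was highest in myelin-high Schwann-like cells, at 947 CPM in KO and 721 CPM in WT, a log2 ratio of 0.39 (interval 0.07 to 0.72). In KO its interval lay apart from that of the next class, and in WT they overlapped. In the myelin-gene cluster the levels were 1455 CPM in KO and 772 CPM in WT, a ratio of 0.91. Gfra1 and Cntf thus lay on opposite sides of 0 in the same cells. Perineurial-like cells followed, with 362 CPM in KO and 545 CPM in WT, a ratio of -0.59 (interval -0.88 to -0.31).

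Outside the nerve, FAP-like cells of the Col15a1 type had 249 CPM in KO and 280 CPM in WT and satellite-like cells 108 CPM in KO and 117 CPM in WT. All 9 compared Gfra1 pairs lay within 2-fold. Among stromal clusters, the Coch and Sbspon cluster had 538 CPM in KO and 536 CPM in WT and the Apod and Lum cluster 428 CPM in KO and 442 CPM in WT, against 164 CPM in KO and 248 CPM in WT in the Ifi205 and Plau cluster. In the cluster led by Myh11 and Pln, smooth muscle-like, Gfra1 had 27.2 CPM in KO and 2.85 CPM in WT, but 1 KO cell held 58.7% of those UMIs. The FAP-like cluster led by Pi16 had 40.8 CPM in KO and 18.2 CPM in WT, from 66 UMIs in KO and 32 in WT. Its ratio of 1.12 (interval 0.53 to 1.82) was past 2-fold, where 8.05% of all genes were called. In gated FAP-like cells of the Dpp4 and Pi16 type the ratio was 0.65 (interval -0.09 to 1.45).

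**Figure D3:**
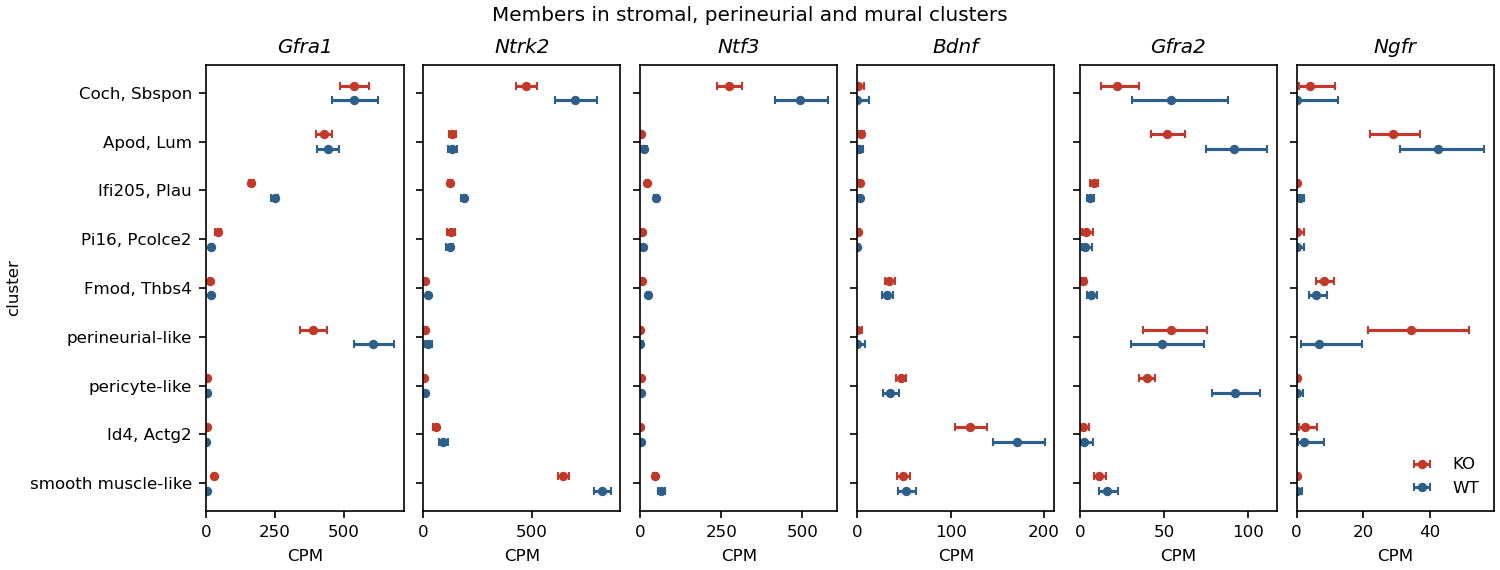
Levels of 6 members in CPM (horizontal axis, from 0, a scale per gene) in stromal, perineurial-like and mural-like clusters named by leading genes or class; points are cluster levels and bars exact Poisson 95% intervals for counting error. Ntrk2 and Ntf3 are high in the Coch and Sbspon cluster, and Ntrk2 is highest in the smooth muscle-like cluster. Gfra1 is high in the Coch and Sbspon, Apod and Lum and perineurial-like clusters, and Bdnf in the Id4 and Actg2 cluster.

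Gfra2, the neurturin co-receptor, was found in perineurial, glial, mural, myeloid and stromal cells. Perineurial-like cells had 58.8 CPM in KO and 47.0 CPM in WT. Myelin-low Schwann-like cells had 47.9 CPM in KO and 42.9 CPM in WT. Pericyte-like cells had 39.4 CPM in KO and 76.4 CPM in WT, a log2 ratio of -0.94 (interval -1.25 to -0.66), and in the pericyte-like cluster the ratio was -1.19. It was also past 2-fold with the strict cell filter, at -1.04, and after thinning, at -1.10. The share of pericyte-like cells with a UMI was 16.2% in KO and 16.3% in WT as sequenced, and 7.11% in KO and 14.0% in WT after thinning. The thinned shares leave out cells under 2000 UMIs.

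Macrophage and monocyte-like cells had 25.9 CPM of Gfra2 in KO and 32.6 CPM in WT. Inside that class the signal lay in the cluster led by Mrc1 and Retnla, at 56.2 CPM in 123 KO cells and 36.2 CPM in 251 WT cells, against 1 UMI in 153 KO cells and none in 72 WT cells of the monocyte cluster led by Chil3. FAP-like cells of the Col15a1 type had 17.2 CPM in KO and 20.8 CPM in WT and held 15.7% of the Gfra2 UMIs of KO and 23.8% of those of WT. Among them the Apod and Lum cluster had 51.8 CPM in KO and 91.7 CPM in WT. The only Gfra2 pair called was tenocyte-like, at 2.51 CPM in KO and 7.54 CPM in WT, a ratio of -1.28 from 9 UMIs in KO and 17 in WT. It was -0.74 with a pseudocount of 5 CPM, and the pair was not compared after thinning.

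Gfra3, the artemin co-receptor, lay mostly in glia. Myelin-low Schwann-like cells had 93.8 CPM in KO and 106 CPM in WT, a log2 ratio of -0.18 (interval -0.48 to 0.13), and held 83.9% of the Gfra3 UMIs of KO and 83.8% of those of WT. Pericyte-like cells held no Gfra3 UMI in 1231 KO cells, so at most 0.244% of such cells would carry a UMI, and none in 754 WT cells, a limit of 0.398%. These limits concern detection at the medians of 4935 in KO and 2479.5 in WT per cell, not cells that express the gene.

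**Figure D4:**
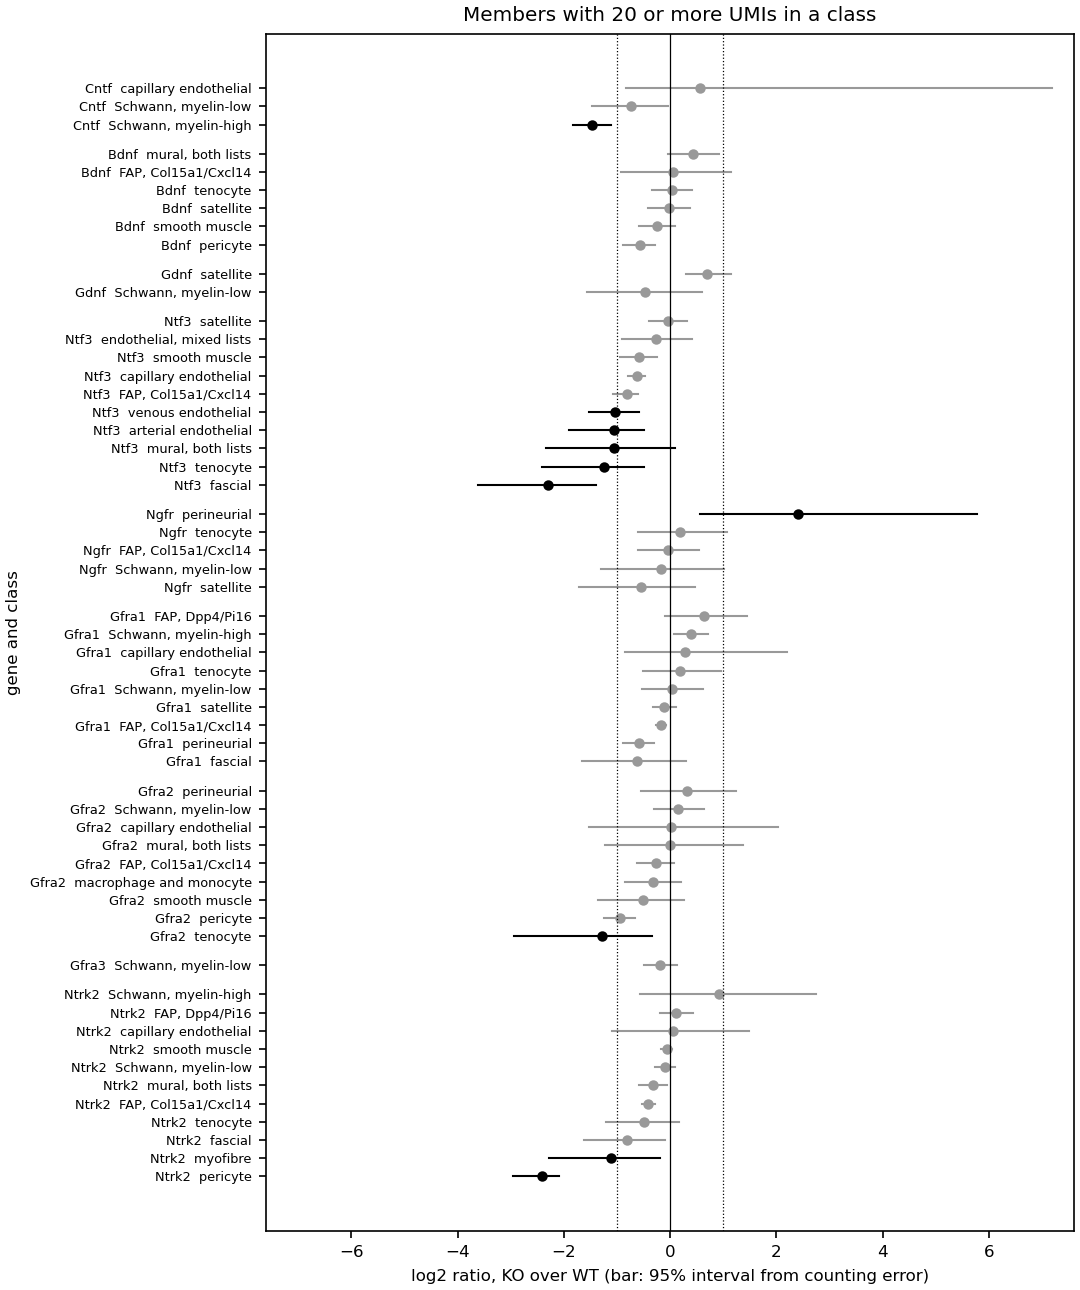
log2 ratio of KO over WT (horizontal axis) for the 56 pairs of member and class with at least 20 UMIs over both libraries, grouped by gene; bars are exact conditional binomial 95% intervals for counting error, dotted lines mark 2-fold and black points lie past it. The Ntf3 points all lie below 0, and Ngfr in perineurial-like cells, at 2.41, is the only black point above 0.

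Schwann-like cells were set apart by their myelin genes, a split that used none of the 9 members. Of 673 KO and 440 WT Schwann-like cells, 60 KO and 59 WT were myelin-high and 585 KO and 348 WT myelin-low. Of the 5 members with enough UMIs in both libraries, all 5 differed at least 2-fold between the states, in the same direction in both libraries. The background was high, since 33.6% of all genes in KO and 35.6% in WT were called between the states, and 19.9% in both libraries the same way. Cntf and Gfra1 were higher in myelin-high cells, by log2 ratios of 4.72 in KO and 5.45 in WT for Cntf and 4.90 in KO and 4.54 in WT for Gfra1. Gfra2, Gfra3 and Ntrk2 were lower. Ntrk2 had a ratio of -2.17 in KO and -3.19 in WT, and Gfra2 one of -2.53 in KO (interval -5.73 to -0.80) and -2.60 in WT (-8.12 to -0.24), from 2 and 1 UMIs in myelin-high cells. Gfra3 had no UMI in KO myelin-high cells, with the upper end of the interval of its ratio at -2.76, and its ratio was -2.45 in WT (interval -4.81 to -0.93), from 3 UMIs. Gdnf and Ngfr, compared between the states in KO alone, lay within 2-fold.

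Clustering without the 9 genes divided the Schwann-like cells further. The myelin-low cells fell into a cluster led by Cadm2 and Scn7a and another led by Bche and Tafa1. Gfra3 had 430 CPM in KO and 429 CPM in WT in the first, and 0.648 CPM in KO and none in WT in the second. Gfra2 had 171 CPM in KO and 155 CPM in WT in the first, against 11.7 CPM in KO and 8.94 CPM in WT in the second. Ntrk2 ran the other way, with 75.2 CPM in KO and 86.3 CPM in WT in the first and 314 CPM in KO and 345 CPM in WT in the second.

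Gfra3 and Ntrk2 were also counted in the same cells. A Gfra3 UMI was found in 108 of 673 KO Schwann-like cells and a Ntrk2 UMI in 344, and both in 17. In WT the counts were 61 of 440 cells, 169 cells and 4 cells. Gfra2 and Gfra3 met in 59 KO cells, of 101 cells with Gfra2, and in 20 WT cells, of 46. Cntf and Gfra1 met in 29 KO cells, of 71 with Cntf, and in 21 WT cells, of 48. No other pairs of genes were counted beside these, and the cells were not thinned. The KO cells were deeper, with medians of 5846 UMIs in KO and 3131.5 in WT in the myelin-low class. Whether the overlaps differ from those of other genes was not tested.

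**Figure D5:**
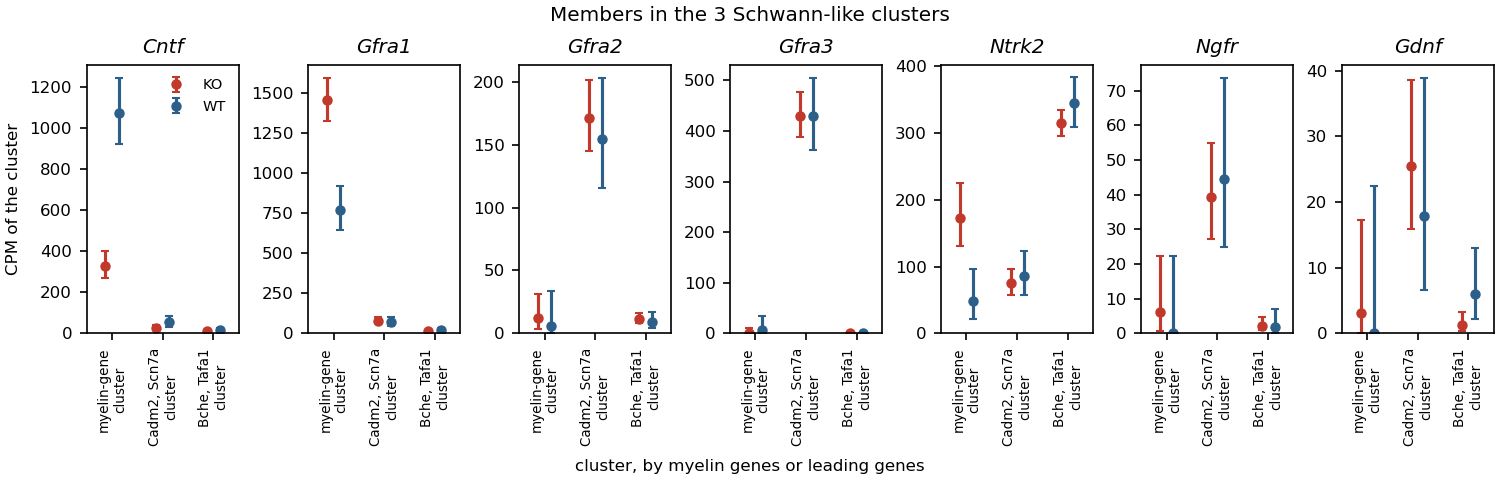
Levels of 7 members in CPM (vertical axis, from 0, a scale per gene) in the 3 Schwann-like clusters, the first named for its myelin genes and the others by leading genes, KO left of WT in each; points are cluster levels and bars exact Poisson 95% intervals for counting error. Cntf and Gfra1 sit in the myelin-gene cluster, Gfra3, Gfra2 and Ngfr in the Cadm2 and Scn7a cluster, and Ntrk2 in the Bche and Tafa1 cluster, in both libraries. Gdnf is higher in the Cadm2 and Scn7a cluster than in the Bche and Tafa1 cluster, but its WT intervals in them overlap.

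Other genes of these pathways were read from 5 lists of 58 genes. Of 557 pairs of gene and class compared, 54 were called higher in KO and 35 lower, 15.98% in all against 8.07% for all genes. The lists hold genes chosen with results in view, so the higher share describes these genes and no more. The 14 other neurotrophin genes gave 7 pairs higher and 10 lower of 150, the 9 genes of the GDNF family and its receptors 7 higher and 5 lower of 50. The 9 genes of the CNTF and LIF family gave 8 higher and 2 lower of 86. The 14 other nerve factors gave 14 higher and 10 lower of 134, and the 14 denervation and repair genes 19 higher and 8 lower of 151.

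Among neurotrophin genes, Ntrk3, the kinase receptor of Ntf3, was highest in smooth muscle-like cells, with 93.9 CPM in KO and 92.1 CPM in WT. Sorcs1, a sorting receptor, was highest in myelin-high Schwann-like cells, with 1149 CPM in KO and 1348 CPM in WT, and Sorcs2, a co-receptor of Ngfr, in myelin-low ones, with 267 CPM in KO and 285 CPM in WT.

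In the GDNF family, Ret, the signalling kinase, had 102.5 CPM in KO and 44.7 CPM in WT in venous endothelial-like cells, a ratio of 1.18. In satellite-like cells, where Gdnf was highest, Ret had 25.8 CPM in KO and 75.6 CPM in WT, a ratio of -1.52, where 9.67% of all genes were called. Gas1, a Ret co-receptor, had 152 CPM in KO and 433 CPM in WT in Col15a1-type FAP-like cells, a ratio of -1.50, where 9.39% of all genes were called. Ncam1, the other receptor of Gdnf and itself a low-myelin marker, was highest in myelin-low Schwann-like cells, with 931 CPM in KO and 1067 CPM in WT.

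For Cntf, its receptor gene Cntfr was highest in tenocyte-like cells, with 217 CPM in KO and 177 CPM in WT, and Clcf1, another ligand of that receptor, in satellite-like cells, with 276 CPM in KO and 136 CPM in WT, a ratio of 1.02. Of the repair genes in myelin-high Schwann-like cells, Sox2, a factor of immature Schwann cells and 1 of the low-myelin markers, had 258 CPM in KO and 68.4 CPM in WT, a ratio of 1.90, and Pou3f1, a factor of promyelinating cells, had 1101 CPM in KO and 509.5 CPM in WT, a ratio of 1.11. Jun, the driver of the repair state, had 1490 CPM in KO and 1522 CPM in WT there, and Egr2, the driver of myelination, 494 CPM in KO and 528 CPM in WT. The muscles of both libraries were digested for 1 h at 37 °C, and the part of this in the levels of Jun and Egr2 was not tested. Shh and Olig1 had no UMI in this class in either library. Tnc, a matrix protein, had 3.74 CPM in KO and 118 CPM in WT, from 1 UMI in KO and 19 in WT.

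The genes whose log2(CPM + 1) ran most like each member were ranked over 20 classes in both libraries, 40 profiles that share their libraries, among 13422 genes. For Cntf they were Fxyd3, Cfap100 and Cdh1, with Pearson r of 0.93, 0.91 and 0.90. For Gfra3 they were Luzp2, Ncam2 and Ctxnd1, at 0.91, 0.90 and 0.89, and for Bdnf Hhip, Mark1 and Pakap, at 0.91, 0.88 and 0.88. Ntrk2 was followed by Serpine2, Nr2f1 and Snhg18, at 0.88, 0.87 and 0.86, and Gfra1 by Pnma8b, Slc27a1 and Scrn1, at 0.87, 0.85 and 0.85. The values for Gfra2 were 0.83, 0.83 and 0.81 with Eno2, Ntm and Cox6b2, and for Gdnf 0.83, 0.83 and 0.82 with Slc24a2, Ptprz1 and Ptprq. Ngfr, with Begain, Slc27a1 and Mdk at 0.75, 0.69 and 0.69, and Ntf3, with Osbpl10, Fat4 and Snai2 at 0.74, 0.73 and 0.72, had the weakest likenesses.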

How the data were processed

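The authors' deposited matrices hold counts, 1 whole number of UMIs per gene and cell barcode, with no normalisation. The labels' protocols name the 10x GEM-X 3′ v4 kit. Cell Ranger 9.0.0 and mm10 are named in the submitters' processing notes, whereas the file headers give 9.0.0 for KO and 8.0.0 for WT. Of 33696 gene IDs, 1735 were not in GENCODE M21.

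Barcodes needed at least 500 genes and at most 10% of UMIs from mitochondrial genes. Scrublet's own threshold called 5 KO and 3 WT barcodes as doublets, so the highest scores up to the expected rate (0.4% per 1000 barcodes) were removed instead, 1450 KO and 467 WT. A cell entered a class with at least 3 of its markers detected and a mean scaled marker score at least 1.5 times that of any unrelated list. Leiden clustering (scanpy 1.11.5, 30 components, 20 neighbours, resolution 1) left the members out of the variable genes. UMIs were summed per class and library, in classes with 50 cells in each library, and log2 ratios used 1 CPM as pseudocount. Thinning drew 2000 UMIs per cell without replacement and left out cells with fewer. Intervals are exact Poisson for levels, Clopper-Pearson for shares and conditional binomial for ratios, the last without the pseudocount. The ratio functions were tested on simulated counts. TMM factors came from edgeR 4.0.16.

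The members, gene lists and marker lists were chosen with earlier results of these data known. Genes named are the 9 members, list genes with at least 20 CPM that were called in a class or highest in nerve classes, and the 3 genes most like each member. Ntrk3, Cntfr, Shh and Olig1 fall outside this rule and were added after their values were seen. Nrg1, listed with more than 1 ID, was left out, and some genes of the lists, counted there, are not reported here by name. Alternatives covered cell filters, doublets, gate, clusters, thinning, scaling, pseudocount, floors and the cell with the most UMIs. Leaving out the KO barcode cluster, or the cells of the Coch and Sbspon cluster, was chosen after the data were seen.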

Additional observations from a re-analysis of the deposited data

Results flagged for a closer look

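Among 55 genes with a compared class (list genes there at 20 CPM or more), 10 list genes and no member were at least 2-fold higher in KO in a class and at least 2-fold lower in another. None of these differences between classes was tested, and several rest on few UMIs: the intervals were 0.81 to 5.98 for Fgf7 in perineurial-like cells, -10.36 to -2.33 for Tnc in myelin-high cells and -0.09 to 4.89 for Egr1 in neutrophil-like cells. The log2 ratios of KO over WT were 1.18 in venous endothelial-like and -1.52 in satellite-like cells for Ret. They were 1.13 in macrophage-like and -1.08 in mixed mural-like cells for Sort1, and 1.01 in arterial endothelial-like and -1.0 in macrophage-like cells for Gdf15. Fgf7 had 2.63 in perineurial-like and -1.89 in myelin-high Schwann-like cells, and Tnc had 2.27 in Col15a1-type FAP-like and -4.65 in myelin-high Schwann-like cells. Igf1 had 1.15 in perineurial-like and -3.06 in macrophage-like cells, and Nrp1 had 2.17 in satellite-like and -1.17 in macrophage-like cells. Runx2 had 1.20 in macrophage-like and -2.05 in myelin-low Schwann-like cells, Egr1 had 1.76 in neutrophil-like and -1.23 in macrophage-like cells, and Fos had 2.57 in myofibre-like and -1.04 in B-like cells. The macrophage-like class was made up differently in each library, with 153 KO and 72 WT cells in the monocyte cluster led by Chil3 and 123 KO and 251 WT cells in the cluster led by Mrc1, and its part in these ratios was not tested.

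The cluster of 2870 KO barcodes with haemoglobin genes in the lead, which has no WT counterpart and enters few class values, held all 9 members above the limit that a count of 0 allows (0.727 CPM). It had 5.09 CPM of Cntf, 14.8 CPM of Bdnf, 3.88 CPM of Gdnf, 39.7 CPM of Ntf3 and 2.18 CPM of Ngfr. For the co-receptors it had 39.5 CPM of Gfra1, 14.3 CPM of Gfra2 and 4.12 CPM of Gfra3, and for Ntrk2 62.3 CPM. These are sums over barcodes with a median of 1348.5 UMIs, from 9 UMIs for Ngfr to 257 for Ntrk2. The limit stands for 3 UMIs summed over the cluster. All kept KO cells together, these included, had 2.97 CPM of Cntf, 13.8 CPM of Bdnf, 4.67 CPM of Gdnf and 31.3 CPM of Ntf3. Ngfr had 2.56 CPM there, Gfra1 50.4 CPM, Gfra2 10.3 CPM, Gfra3 4.51 CPM and Ntrk2 68.2 CPM. The source of the counts in the cluster was not tested.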

How the results depend on the processing

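No paired analysis was possible because there is 1 library per genotype, and no library could be left out. The count of members with the same leading class in both libraries (7) and that of Schwann members apart in both (5) kept within 1.5 times under each alternative run. The leading classes themselves could change: 11 of 18 were kept after thinning, 14 with the strict cell filter and 15 with clusters. With thinning or the strict filter the myelin-high class fell under 50 cells. Cntf then led in myelin-low and Gfra1 in perineurial-like cells, in both libraries. With clusters, Bdnf led in smooth muscle-like cells in both libraries. The 10 called pairs of member and class, of 56 compared, became 6 with TMM factors and 4 with a pseudocount of 5 CPM. With a floor of 100 UMIs 3 of 30 compared pairs were called, and with no floor 36 of 140. The TMM factors moved all ratios of a class by -0.11 to 1.04 on the log2 scale, by over 0.1 in 6 of 20 classes and most in neutrophil-like cells. The 89 called pairs of the other pathway genes, of 557 compared, became 55 after thinning to 2000 UMIs and 57 with a pseudocount of 5 CPM. They became 42 with a floor of 100 UMIs and 228 with no floor. Floors and thinning also change how many pairs are compared, and the share over all genes was not computed under these settings. Higher pseudocounts and floors act on low counts by construction; for the others the cause was not tested. Ntrk2 in myofibre-like cells had a ratio of 0.15, against -1.12 with all cells, without the cell with the most UMIs in each library. Between 4 and 10 of the 10 called pairs were called again under the alternatives other than floors and pseudocounts. Leaving out the cells of the Coch and Sbspon cluster, an alternative added after the data were seen, took Ntf3 in Col15a1-type FAP-like cells past 2-fold, at -1.49. With few UMIs a pair can fall under the floor, as Ngfr in perineurial-like cells did.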
